A study of Mus musculus with 3 samples.

Results

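The lysosome and autophagy genes described here were 43 genes, named by function, out of 55536 annotated genes. They encode lysosomal membrane proteins, lysosomal proteases and other hydrolases, the transcription factors of the lysosome, and the proteins that initiate, shape and fill the autophagosome. They were measured in 3 polyA RNA-seq libraries of activated regulatory T cells (a Foxp3-dependent class of CD4 T cell, called Treg, that holds back immune responses), taken as primary cells from 1 male mouse aged 9 weeks. Technical replicates 1, 2 and 3 of that biosample are called libraries 1, 2 and 3. The labels gave no strain, genotype, activation protocol or sorting gate, and there was no other group. All comparisons were therefore between genes or between libraries of the same cells, and every SD is technical (n = 3 libraries). Levels are in TPM (each transcript's share of all transcripts, corrected for its length), so that levels of different genes compare per length.

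A lysosome is an acidic compartment in which proteases, glycosidases and lipases break down proteins, sugars and lipids delivered by endocytosis or by autophagy. In autophagy, the ULK1 kinase complex starts a membrane, a lipid kinase complex around Beclin 1 marks it, and ubiquitin-like conjugation attaches proteins of the ATG8 family (LC3 and GABARAP) to its lipids. Cargo receptors such as p62 bind ATG8 proteins and carry cargo into the closing vesicle, which then fuses with a lysosome. In Treg cells autophagy is known to help maintain the cells and their lineage programme, and TFEB and TFE3 are the transcription factors known to switch lysosomal genes on through a palindromic promoter motif.

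Promoter sequence is shown first because this motif is what many lysosomal genes are known to share. RefSeq promoter windows (GRCm38.p6, from 250 bases before to 50 after a gene's start) were present for 36 of the 43 genes, and not for Ctsb, Ctsh, Rb1cc1, Becn1, Atg12, Atg16l1 and Map1lc3a. They were searched for the 10-base CLEAR palindrome (TCACGTGA with a G before it and a C after it), for TCACGTGA itself and for the core CACGTG. Each is its own reverse complement, so a search of both strands finds the same sites, and each longer motif contains the shorter ones. The 10-base form was in 0 of the 36 genes' windows, against 0.370% of 27025 genes with a window. TCACGTGA was in 4 of the 36 (11.1%, against 1.12% of all genes), and CACGTG in 11 (30.6%, against 8.09%). The Lamp1 window held CACGTG 4 times, 61, 45, 28 and 15 bases before the start. The 60 bases that hold them (chr8:13159095-13159154, plus strand) are shown with CACGTG in capitals.
Lamp1: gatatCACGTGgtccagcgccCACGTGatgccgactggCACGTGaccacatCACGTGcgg
The 4 genes with TCACGTGA were Ctsa (chr2:164833743-164833772, plus strand), Ctsd (chr7:142387908-142387937, minus strand), Mcoln1 (chr8:3500462-3500491, plus strand) and Atg3 (chr16:45158746-45158775, plus strand), and a 30-base stretch of each is shown with the motif in capitals. The motif began 13, 99, 46 and 72 bases before the RefSeq start in these genes, and Ctsa had a second copy just after its start.
Ctsa: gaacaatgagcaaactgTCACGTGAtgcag
Ctsd: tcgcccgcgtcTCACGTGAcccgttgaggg
Mcoln1: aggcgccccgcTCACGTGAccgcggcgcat
Atg3: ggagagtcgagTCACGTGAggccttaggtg
The stretches of Ctsa, Ctsd and Mcoln1 also overlap GENCODE exons of the same gene. The other genes with CACGTG alone were Ctsl, Lgmn, Gaa, Atg5, Atg7 and Atg14. A match of letters is a description of the window and was not tied to binding.

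As a group the genes were expressed. Of the 43, 42 were detected, meaning at least 1 TPM in every library, against 22.7% of all annotated genes and 47.3% of protein-coding genes. The exception was Wipi1, described under membrane supply. Their median level was 58.9, 48.6 and 54.5 TPM in libraries 1, 2 and 3 (54.0 ± 5.13), against a median of 29.2 TPM over the 10429 detected protein-coding genes. A mean of 100 TPM or more was reached by 12 of the 43 genes, against 17.3% of detected and 8.20% of all protein-coding genes. Another 5 stayed under 10 TPM, for which no share over all genes was counted. The 43 genes were chosen with earlier results of these data known, so these contrasts with all genes are descriptions and not tests.

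**Figure D1:**
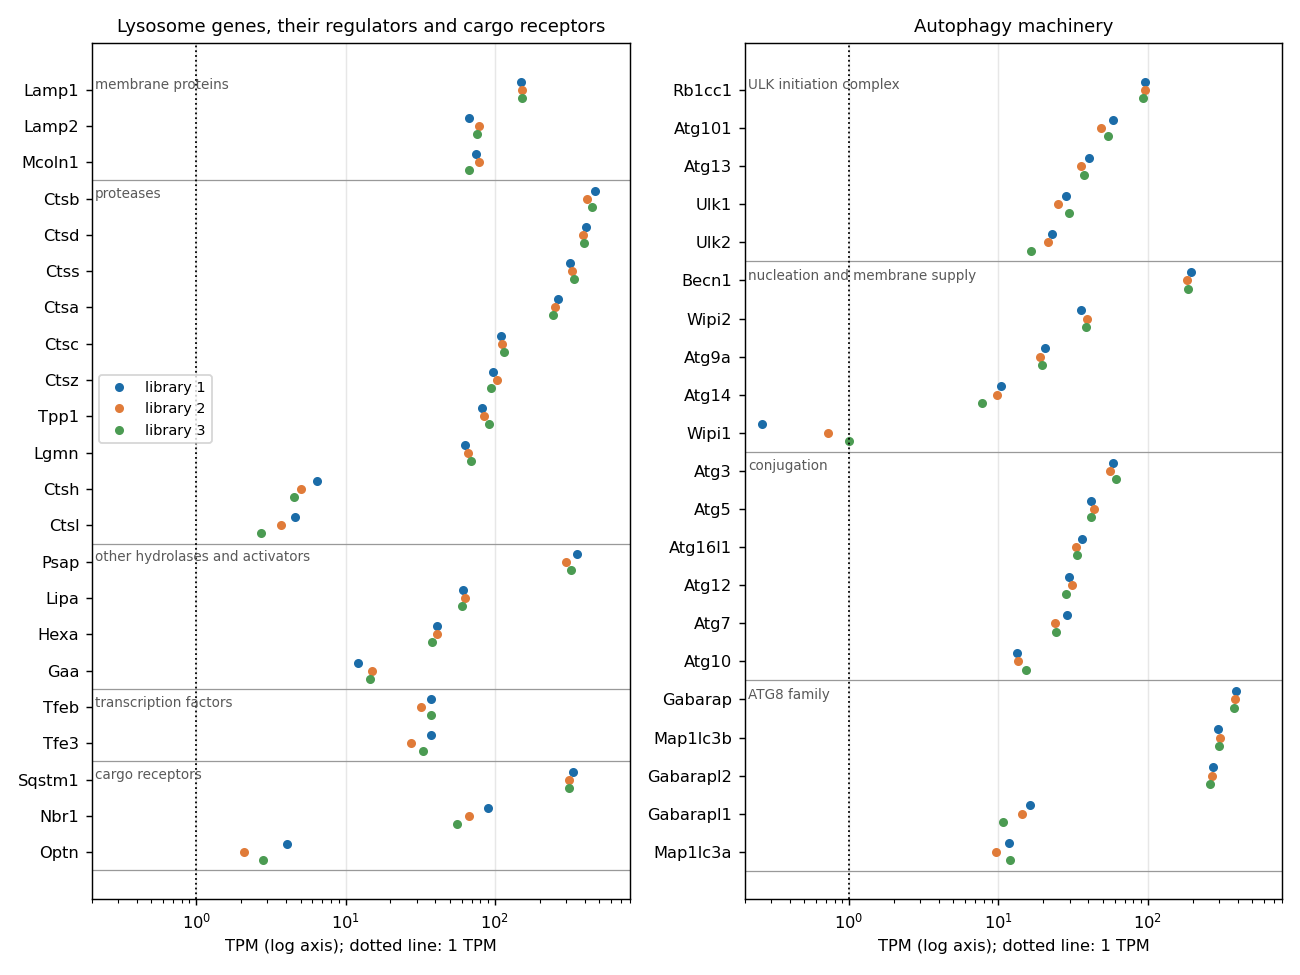
Level of each of the 43 genes in TPM (log axis), grouped by role and ordered by mean within a role; each point is 1 library and the dotted line marks 1 TPM. The libraries lie close together for most genes, the proteases Ctsh and Ctsl lie far below the other 8, and Wipi1 lies at or below the line.

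All 3 membrane protein genes were detected. Lamp1 and Lamp2 encode the abundant glycoproteins that line the lysosomal membrane. Lamp1 (ENSMUSG00000031447.7, mm10 chromosome 8, 13159161 to 13175338) stood at 149, 152 and 152 TPM in libraries 1, 2 and 3. Lamp2 (chromosome X, 38401357 to 38456454, minus strand) stood at 67.6, 78.5 and 76.3 TPM. Lamp1 was higher than Lamp2 in each library, by 1.03 ± 0.10 on the log2 scale. A log2 ratio of 2 genes was called larger than the spread where all 3 libraries gave 1 sign and the mean was over 2 SD, and this one was. With 3 libraries an exact sign-flip test cannot go below p = 0.25, so no p-value is given for such ratios. Mcoln1, which encodes a calcium release channel of the lysosome, stood at 74.8, 77.9 and 66.7 TPM, overlapping the range of Lamp2.

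Lamp2 has 3 coding isoforms that differ only in their last coding exon, which encodes the transmembrane part and the short cytosolic tail. LAMP2A is known as the receptor of chaperone-mediated autophagy, in which single proteins are pulled across the lysosomal membrane. The transcripts share their first 1109 coding bases, and the printed ends begin with the last 12 shared bases in lower case. The isoform-specific coding bases are in capitals, from the GENCODE M21 transcripts of mm10, minus strand. The last coding exons lie at chrX:38405435-38405571 for Lamp2-201, whose end encodes LAMP2A, at chrX:38421715-38421851 for Lamp2-202 (LAMP2B) and at chrX:38402142-38402281 for Lamp2-203 (LAMP2C).
Lamp2-201: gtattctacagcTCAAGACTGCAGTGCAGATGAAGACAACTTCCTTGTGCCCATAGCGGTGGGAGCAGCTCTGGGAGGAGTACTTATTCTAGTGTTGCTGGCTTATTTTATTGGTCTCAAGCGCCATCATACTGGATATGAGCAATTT
Lamp2-202: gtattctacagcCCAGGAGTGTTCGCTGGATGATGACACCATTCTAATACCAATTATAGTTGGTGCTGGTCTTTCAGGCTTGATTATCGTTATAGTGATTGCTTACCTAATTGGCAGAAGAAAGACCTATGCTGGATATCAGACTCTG
Lamp2-203: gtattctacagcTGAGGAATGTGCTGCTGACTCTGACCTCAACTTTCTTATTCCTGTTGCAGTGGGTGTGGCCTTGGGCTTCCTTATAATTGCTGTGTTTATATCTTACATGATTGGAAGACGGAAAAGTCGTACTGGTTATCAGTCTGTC
Lamp2-202 held 54.5%, 50.3% and 59.3% of the gene's TPM in libraries 1, 2 and 3, and Lamp2-201 held 42.3%, 47.4% and 37.9%. The ranges of these 2 shares did not overlap, and Lamp2-203 was minor with a mean of 1.19%. By expected counts, in which a long transcript weighs more, Lamp2-202 held 70.8% and Lamp2-201 26.7%. Both measures put the LAMP2B transcript first.

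Among the proteases, all 10 genes were detected and 8 of them lay above 60 TPM. Ctsb (cathepsin B, a cysteine protease, chromosome 14, 63122462 to 63145923) was highest of all 43 genes at 468, 416 and 447 TPM. Ctsd (cathepsin D, the main aspartic protease of the lysosome) followed at 407, 389 and 397 TPM, and Ctss (cathepsin S, known for trimming the invariant chain of MHC class II) at 319, 328 and 337 TPM. In each library the order over all transcripts was Ctsb, Ctsd, Ctss. On protein-coding transcripts alone Ctsb stood at 139 ± 5.98 TPM, below Ctsd (397 ± 8.43) and Ctss (328 ± 8.91), so its first place depends on the measure. Ctsa, a carboxypeptidase that also protects other lysosomal enzymes, stood at 265, 251 and 247 TPM.

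At the other end, Ctsl (cathepsin L, chromosome 13, 64359337 to 64370890, minus strand) stood at 4.56, 3.71 and 2.73 TPM on 103, 108 and 59 expected counts. Ctsh (cathepsin H, an aminopeptidase) stood at 6.39, 5.05 and 4.55 TPM. Both were highest in library 1 and lowest in library 3 by TPM. The log2 ratio over Ctsl was 6.75 ± 0.35 for Ctsd, 6.91 ± 0.35 for Ctsb and 6.47 ± 0.40 for Ctss, each larger than the spread. Between these ends lay Ctsc (112 ± 2.41 TPM), which encodes the dipeptidase that activates granzymes, Ctsz (98.9 ± 4.67), Tpp1 (85.9 ± 5.17) and Lgmn (66.1 ± 2.68), the asparagine-specific protease.

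Several of these proteases are known as abundant in macrophages, so macrophage and monocyte markers were read in the same libraries. Of 12 markers 7 were detected, and their summed level was 71.9, 67.2 and 69.1 TPM. Lyz2 was highest at 21.1, 21.6 and 31.8 TPM, C1qb stood at 12.4, 10.7 and 7.34 TPM, and Cd14 at 0.58, 0.24 and 0 TPM. By TPM, 3 of the 7 detected markers (C1qa, C1qb and C1qc) had the order of libraries that Ctsh and Ctsl had, and 4 (Lyz2, Cd68, Csf1r and Itgam) did not. The part of such cells in the protease levels was not tested, and in bulk RNA fewer cells of a type and less RNA per cell cannot be told apart.

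**Figure D2:**
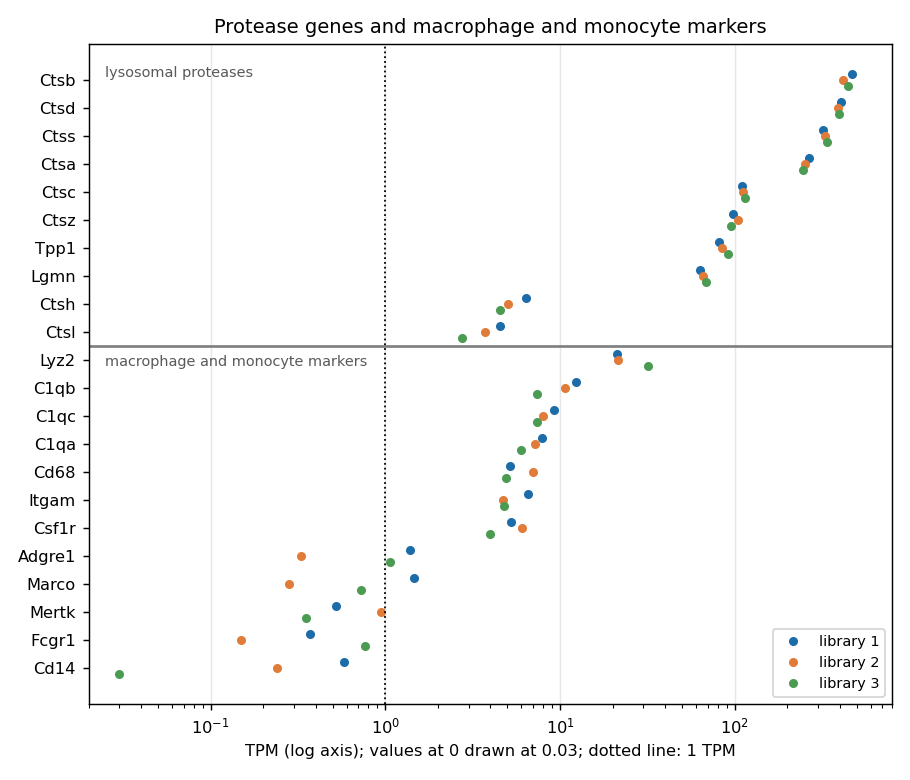
Level in TPM (log axis) of the 10 protease genes (above the line) and of 12 macrophage and monocyte markers (below the line); each point is 1 library, a value of 0 is drawn at 0.03 and the dotted line marks 1 TPM. The other 8 protease genes lie above all markers, and Ctsh and Ctsl lie within the markers' range.

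The other hydrolase and activator genes were led by Psap, which encodes the precursor of the saposins that present lipids to hydrolases. It stood at 353, 302 and 324 TPM. Lipa, the acid lipase of cholesteryl esters, stood at 61.7 ± 1.24 TPM, and Hexa, a subunit of the hexosaminidase that degrades gangliosides, at 39.97 ± 1.80. Gaa, the glycogen-degrading glucosidase, was lowest at 12.1, 14.9 and 14.5 TPM. The ranges of these 4 genes did not overlap.

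Both lysosomal transcription factor genes were detected at intermediate levels. Tfeb stood at 37.6, 31.8 and 37.3 TPM and Tfe3 at 37.4, 27.2 and 33.2 TPM, and both were lowest in library 2. Their log2 ratio (Tfe3 over Tfeb) was -0.13 ± 0.11, which did not exceed the spread. It turned to 0.51 in CPM (counts scaled to library size, with no length correction) and was -0.41 on protein-coding transcripts alone, so the order of the pair depends on the measure. The relatives Mitf (0.27 ± 0.17 TPM) and Tfec (0.11 ± 0.13 TPM) were not detected.

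In the ULK initiation complex all 5 genes were detected. Rb1cc1, which encodes the scaffold FIP200, was highest at 96.4, 95.9 and 93.3 TPM. The adaptor genes Atg101 (54.0 ± 5.19) and Atg13 (37.9 ± 2.26) followed. The kinase gene Ulk1 stood at 28.5, 25.1 and 29.5 TPM and its paralog Ulk2 at 22.9, 21.4 and 16.6 TPM. Ulk1 was higher than Ulk2 in each library by TPM, but the log2 ratio of 0.46 ± 0.32 did not exceed 2 SD. Without library 3, where Ulk2 was lowest, it was 0.27 ± 0.06 and did. On protein-coding transcripts the ratio was 0.15 ± 0.18. Without length correction, on counts scaled to library size, it was 0.03 ± 0.20, with Ulk1 lower in libraries 1 and 2. By TPM the kinase genes were the low end of their own complex in each library.

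The genes of nucleation and membrane supply spanned the widest range, in fold, of any role, but only with the undetected Wipi1 counted. Their detected genes ran from a mean of 188 to 9.29 TPM. The proteases, from 444 to 3.67 TPM, spanned more than that. Becn1, which encodes Beclin 1 (chromosome 11, 101285952 to 101302286, minus strand), stood at 195, 183 and 187 TPM. Atg14, which encodes the partner that directs Beclin 1 to autophagy, stood at 10.4, 9.77 and 7.71 TPM. The membrane-carrying scramblase gene Atg9a stood at 19.8 ± 0.89 TPM. Wipi2 and Wipi1 encode proteins that read the lipid mark. Wipi2 stood at 36.0, 39.2 and 38.9 TPM. Wipi1 stood at 0.26, 0.72 and 1.00 TPM on 10, 23 and 39 expected counts, and so missed detection in libraries 1 and 2. The pair's log2 ratio was 5.79 ± 0.77, larger than the spread, with Wipi2 higher in each library.

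All 6 conjugation genes were detected. Their means ran from 14.1 TPM for Atg10 to 58.8 for Atg3, both of which encode transfer enzymes (Atg3 for the ATG8 proteins, Atg10 for ATG12). Atg3 stood at 58.9, 55.8 and 61.7 TPM and Atg10 at 13.3, 13.6 and 15.4 TPM, a log2 ratio of 2.05 ± 0.08. Only 43.3% ± 5.86 of the Atg10 TPM lay on protein-coding transcripts, and on those alone the ratio was 3.21 ± 0.22. Atg5, the acceptor of ATG12, stood at 41.7, 43.7 and 41.9 TPM. Atg12 stood at 29.9, 30.9 and 28.2 TPM and was below Atg5 in each library, with a log2 ratio of -0.51 ± 0.05. In CPM the sign of that ratio turned (0.24), since the count is not divided by transcript length. Atg16l1, which places the conjugate on the membrane, stood at 34.2 ± 1.73 TPM, and Atg7, the activating enzyme of both conjugation branches, at 25.7 ± 2.64.

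The ATG8 family was split into 3 abundant and 2 scarce genes. Gabarap stood at 393, 385 and 378 TPM, Map1lc3b (LC3B) at 296, 305 and 300.2 TPM, and Gabarapl2 at 273, 270.0 and 260.3 TPM. Gabarapl1 stood at 16.3, 14.4 and 10.7 TPM and Map1lc3a (LC3A) at 11.8, 9.57 and 11.9 TPM. The abundant genes did not overlap each other or the scarce ones in any library, while the scarce ones overlapped. As shares of the family's summed TPM, Gabarap held 39.4% ± 0.28, Map1lc3b 30.7% ± 0.72, Gabarapl2 27.4% ± 0.25, Gabarapl1 1.41% and Map1lc3a 1.14%.

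The order of the abundant genes depended on the measure, as the plot of family shares shows. Gabarap was above Map1lc3b by 0.36 ± 0.04 on the log2 scale in TPM. On protein-coding transcripts alone the ratio was -0.17 ± 0.07, and in CPM -0.43 ± 0.03. Gabarap was above Gabarapl2 by 0.52 ± 0.01 in TPM and by 2.04 ± 0.11 on protein-coding transcripts. Map1lc3b exceeded Map1lc3a by 4.75 ± 0.20 and Gabarapl2 exceeded Gabarapl1 by 4.29 ± 0.27, both larger than the spread.

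**Figure D3:**
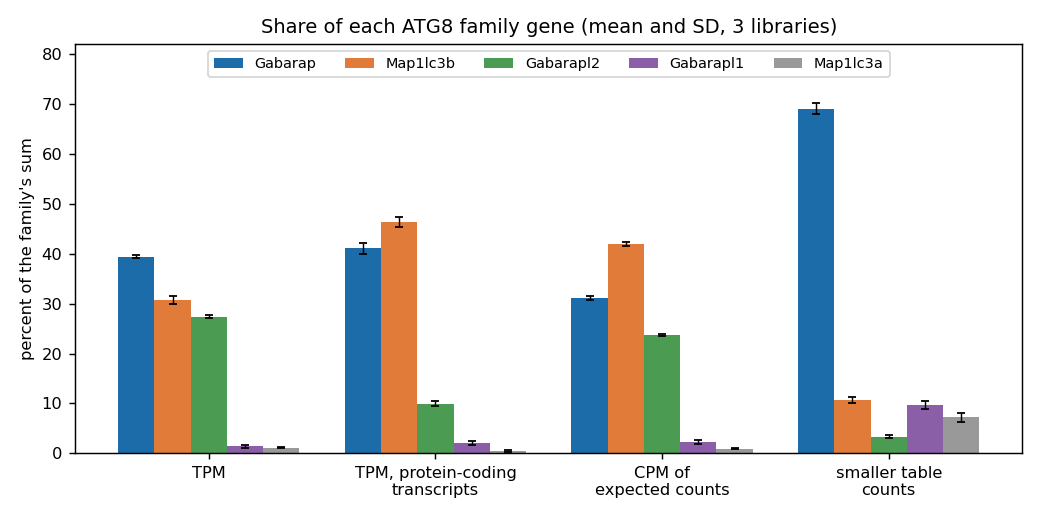
Share of each of the 5 ATG8 family genes in the family's sum (percent), by 4 measures; bars are means and error bars the SD over 3 libraries. Gabarap, Map1lc3b and Gabarapl2 hold nearly all of the sum in TPM and in CPM, Gabarapl2 falls to 9.98% on protein-coding transcripts, and the smaller gene table gives 69.0% to Gabarap.

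A second, smaller gene table of whole counts held 8827129, 8758421 and 9555924 counts in libraries 1, 2 and 3. The expected counts summed to 31445344, 32612609 and 37259281, so lower values were general in the smaller table. For some of these genes they were lower still. Map1lc3b had 122, 119 and 137 counts there, which is 1.36% of its expected counts, and Gabarapl2 had 40, 42 and 37 (0.77%). Atg12 had 247, 237 and 259 (10.2%). In that table Gabarapl2 lay below Gabarapl1, with a log2 ratio of -1.51 against 4.29 in TPM. Map1lc3b exceeded Map1lc3a there by 0.56 ± 0.10, against 4.75 in TPM. Over the 43 genes the smaller table held between 0.77% and 79.4% of the expected counts, the latter for Gaa. It held much of genes with few counts, such as Wipi1 (76.6%), Ctsl (74.6%) and Ctsh (73.3%). For the abundant Psap and Ctsd it held 17.8% and 14.3%, and for Ctsb and Gabarap 10.9% and 11.9%, close to Atg12. Gabarapl1, with a mean of 506 counts, went the other way at 22.9%. Ratios of genes in that table carry these unequal shares. In the larger table the posterior SD of the count was 0.52% of the count for Map1lc3b, 0.10% for Gabarapl2 and 0% for Atg12. That SD reflects how surely reads were assigned, so it does not tell how many reads were shared. How the smaller table handles shared reads is not stated in the labels or headers, and what lowered these genes was not tested.

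The 3 cargo receptor genes stood at well separated levels. Sqstm1, which encodes p62, stood at 332, 313 and 316 TPM. Nbr1, its relative, stood at 90.7, 67.5 and 56.0 TPM, and Optn (optineurin) at 4.03, 2.10 and 2.82 TPM. Sqstm1 exceeded Nbr1 by 2.19 ± 0.31 and Optn by 6.75 ± 0.41 on the log2 scale, and the 3 genes did not overlap. In CPM the ratio to Nbr1 was 1.60 ± 0.04, and in the smaller gene table it was 0.20 ± 0.02. That table held 20.8% of the expected counts of Sqstm1 and 55.0% of those of Nbr1. The libraries were closer in the expected counts of Nbr1, with 3898, 3755 and 4216, or 124, 115 and 113 CPM, than in its TPM. Part of its TPM lay on Nbr1-221, a transcript of 63 bases annotated as misc_RNA, with 18.2%, 10.5% and 0% in libraries 1, 2 and 3. With an effective length of 14 bases, that transcript held 0.0567% of the gene's expected counts. On protein-coding transcripts Nbr1 stood at 40.7 ± 10.1 TPM.

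**Figure D4:**
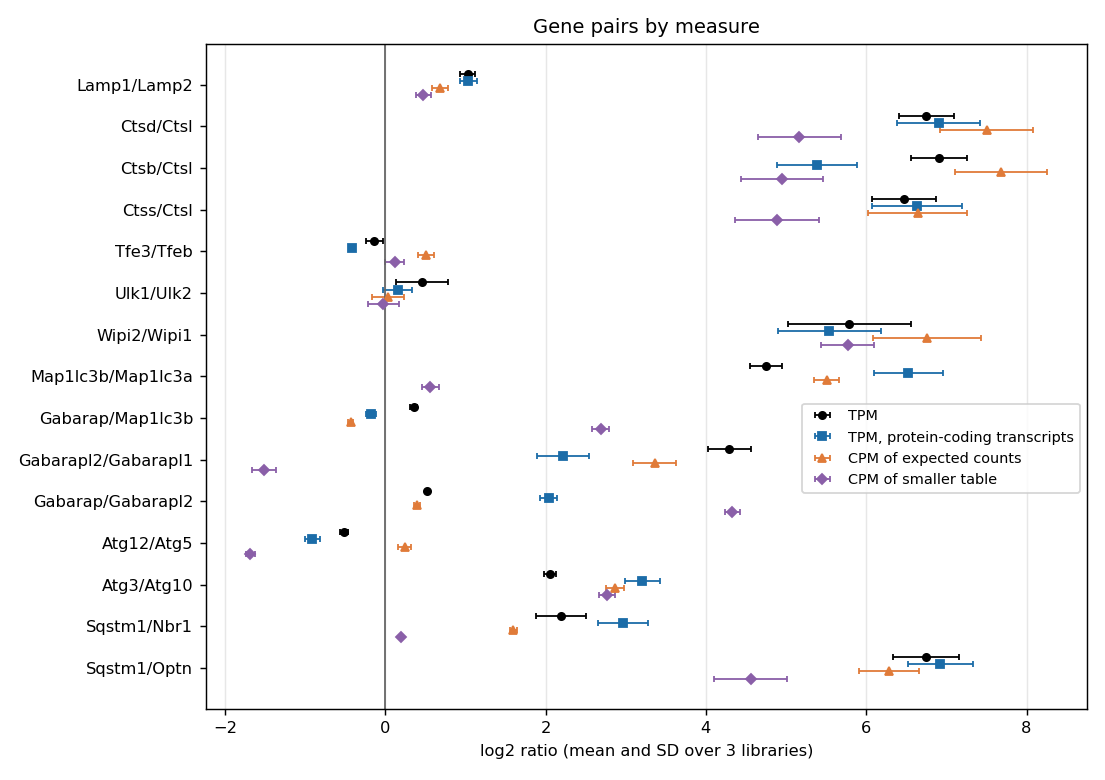
Log2 ratio of each of 15 gene pairs by 4 measures (TPM, TPM of protein-coding transcripts, CPM of expected counts, CPM of the smaller gene table); points are means and bars the SD over 3 libraries, and the vertical line marks equal levels. In TPM, 13 pairs exceed the spread and only Tfe3/Tfeb and Ulk1/Ulk2 do not, and points of one pair on both sides of the line mark an order that depends on the measure.

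The level of a gene was not always the level of its coding transcripts. For 8 of the 42 detected genes (19.0%) less than 50% of the TPM lay on transcripts annotated as protein-coding, against 14.3% of the 10429 detected protein-coding genes. At least 90% was coding for 22 of the 42 (52.4%, against 46.6%). In 5 genes (Ctsb, Ctsh, Becn1, Map1lc3a and Gabarapl2) the leading transcript by TPM was not protein-coding. By expected counts it was so in 4, without Ctsb. The share of all genes with such a leading transcript was not counted, so these numbers do not set the 43 genes apart. The median of all 43 genes was 37.7 TPM on coding transcripts, below the 54.0 over all transcripts.

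Ctsb and Gabarapl2 were led by short transcripts with a retained intron. Ctsb-202, of 801 bases, held 68.8%, 67.5% and 69.2% of the Ctsb TPM, but 25.9% of its expected counts, where the coding Ctsb-201 of 4743 bases led with 73.9%. On coding transcripts Ctsb stood at 139 ± 5.98 TPM, below Ctsd at 397 ± 8.43. Gabarapl2-203, of 749 bases, held 77.5%, 74.8% and 75.9% of the Gabarapl2 TPM and 57.9% of its counts. In Gabarapl2 the transcript led by both measures, and in Ctsb by TPM alone. Ctsb exons also overlap those of Fdft1 on the other strand (29.6 ± 1.92 TPM), and the labels and headers do not state the strand setting of the counting.

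Becn1 had the lowest coding share of the 43 genes. Its leading transcript, Becn1-201, belongs to the annotated class of nonsense-mediated decay, the pathway that removes RNAs with an early stop. It held 47.4%, 52.9% and 51.1% of the TPM and 60.1% of the expected counts. All transcripts of that class together held 67.5% ± 5.38, retained introns 21.1% ± 4.12, and coding transcripts 10.7% ± 1.64, or 20.1 ± 3.33 TPM. Becn1 thus stood at 188 TPM over all transcripts and at 20.1 TPM on the coding ones.

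Further genes had large non-coding parts. Retained introns took 50.9% ± 1.86 of Mcoln1, 45.5% ± 1.80 of Tpp1, 34.3% ± 1.66 of Atg16l1 and 32.0% ± 1.36 of Gabarap. In Ctsh, Ctsh-202, annotated for nonsense-mediated decay, held 57.3% ± 3.41, and in Map1lc3a processed transcripts held 70.3% ± 11.99. Ctss, Ctsz, Hexa, Psap, Atg101 and Gabarapl1 lay wholly on coding transcripts. Reads of about 50 bases seldom span several junctions, which limits how far such shares resolve.

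**Figure D5:**
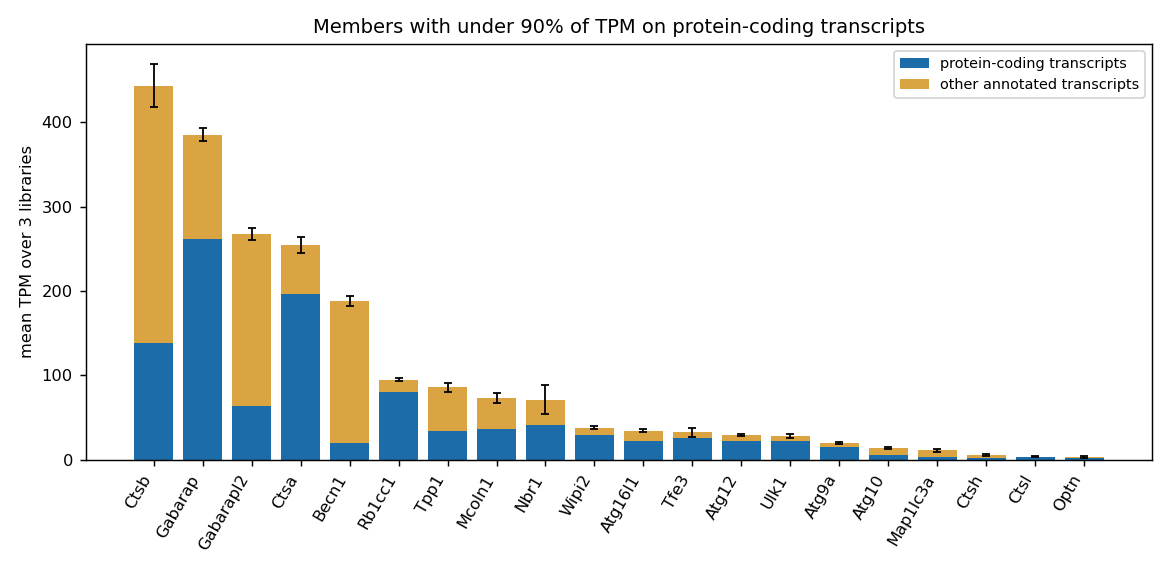
Mean TPM over 3 libraries of the 20 genes with under 90% of their TPM on protein-coding transcripts, split into protein-coding (lower part) and other annotated transcripts (upper part); error bars are the SD of the whole gene's TPM. Ctsb, Gabarapl2 and Becn1 have the largest parts on other transcripts, and Becn1 keeps 20.1 TPM on coding ones.

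Between the technical libraries most of the genes differed by more than read counting gives, as did most genes of these cells. In a chi-square test of equal shares of the expected counts (Benjamini-Hochberg adjusted over 15945 genes), 37 of the 43 differed, against 65.8% of all genes tested. The 6 that did not pass were Ctsd, Rb1cc1, Becn1, Atg9a, Map1lc3a and Gabarap. After division by 1 overdispersion value for all genes, only Psap differed, with 555, 487 and 516 CPM, against 1.85% of all genes. The undivided test on the smaller table found 12, against 33.5%. At the same fold these tests pass a gene with more counts more readily, and the shares were not matched on counts. The CPM of Psap varied by 6.59% on a mean of 17496 counts. Ulk2 (13.9% on 2358 counts) and Gabarapl1 (19.4% on 506) varied more but did not pass after the division. The steps were small for the abundant genes: the median coefficient of variation of CPM was 4.54% over the 34 genes with a mean of at least 1000 counts, against 5.30% over 6386 such genes.

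By TPM the steadiest genes were Lamp1 (coefficient of variation 1.21%), Map1lc3b (1.46%) and Rb1cc1 (1.71%). The most variable were Wipi1 (56.6%), Optn (32.7%), Ctsl (25.0%) and Nbr1 (24.7%), of which the first 3 rested on few counts. Library 1 was highest by CPM for 20 of the 42 detected genes (47.6%, against 34.3% of all detected genes) and library 3 for 9 (21.4%, against 30.2%). Library 1 also had more of some markers of other cells. Its summed neutrophil markers were 24.9 TPM, against 2.54 and 3.48 in libraries 2 and 3, and its summed haemoglobin and other erythroid markers 890.4 TPM, against 637 and 714. Their part in the differences between libraries was not tested.

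The wider pathway was read from 5 further lists of 112 genes in all, of which 105 were detected. These lists too were chosen with earlier results of these data known. All 16 V-ATPase genes, which encode the proton pump of the lysosome, were detected with a median of 96.5 TPM. They ran from Atp6v1f (322 ± 11.6 TPM) and Atp6v0e (321 ± 20.2) down to Atp6v1a (19.5 ± 1.23) and Atp6v0a1 (12.2 ± 1.81). Of 28 other hydrolase genes 27 were detected, with Ctsw (155 ± 4.78), a protease gene known from cytotoxic lymphocytes, and Man2b1 (144 ± 5.49) highest. Ctsf (3.00 ± 0.88) was low and Ctsk, known from osteoclasts, was not detected at 0.32, 0.07 and 0.06 TPM.

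Of 20 other membrane and sorting genes 19 were detected. Laptm5, a lysosomal membrane protein gene of blood cells, reached 1756 ± 24.7 TPM, above every one of the 43 genes, and the sorting receptor gene M6pr 259 ± 10.7. Cd63 (1.71 ± 0.70) was low and Sort1 (0.30 ± 0.10) was not detected. Of 28 other autophagy genes 25 were detected, led by the mitophagy receptor gene Bnip3l (375 ± 29.1) and by Vmp1 (233 ± 3.54), and Atg9b (1.38 ± 0.46, under 1 TPM in library 3), Atg4c (0.25 ± 0.07) and Wdfy3 (0.22 ± 0.17) were not. Of 20 regulators 18 were detected, and the Ragulator genes Lamtor5 (237 ± 14.0) and Lamtor2 (133 ± 8.59), which anchor mTORC1 signalling at the lysosome, were highest.

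The labelled cell type was read from its markers. All 7 Treg markers were detected, with Foxp3 at 138, 133 and 134 TPM, and all 9 pan T cell markers. B cell markers summed to 43.7 to 56.2 TPM over the libraries (5 of 6 detected), dendritic cell markers to 74.0 to 97.4 (4 of 9), and NK and CD8 T cell markers to 27.8 to 30.1 (5 of 6). Expected counts summed to 31445344, 32612609 and 37259281 in libraries 1, 2 and 3. Exons of 15 of the 43 genes overlap another gene, and 6 overlap a detected one: Ctsa, Ctsb, Ctsz, Rb1cc1, Atg9a and Sqstm1. Such overlaps were not counted over all genes.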

How the data were processed

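Polyadenylated RNA of 1 biosample was read in 3 technical libraries. Per the labels and file headers, the authors deposited for each library a larger gene table and a transcript table on mm10 with GENCODE M21 that hold expected counts and TPM, and a smaller gene table of whole-number counts (GENCODE M4). The posterior SD of the count, another deposited value, was read only as a sign of how surely reads were assigned. No source used here gives the quantification program or the strand setting. Rows that match no annotated gene held 0.125%, 0.182% and 0.155% of the expected counts and were left out.

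Expected counts were rounded for the chi-square test (2 degrees of freedom, summed count of at least 30, adjusted p under 0.05), which treats reads as independent and so covers counting error only. It was tested on simulated counts that varied by counting error alone, so the simulation cannot show how it behaves under a wider spread. A gene was detected at 1 TPM or more in each library. Log2 ratios used a pseudocount of 0.1. The members and lists were chosen with earlier results of these data known. All 43 genes are accounted for by role, and values per library are given for those that lead or end a role, form a pair, missed detection or varied most or least. Alternatives used edgeR 4.0.16 and DESeq2 1.42.0 size factors (R 4.3.3), no count filter, a pseudocount of 1, CPM, coding transcripts, the smaller table and each library left out. Python 3.11.15, pandas 2.3.3 and scipy 1.17.1 were used. The p-values set differences between libraries of 1 biosample against counting error, with or without the overdispersion. They measure no spread between animals.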

Additional observations from a re-analysis of the deposited data

How the results depend on the processing

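Most values kept their direction and their side of the threshold under the alternatives that were run, and the main exceptions were these. The number of genes that differed between libraries was 37. It fell to 12 in the smaller gene table and to 1 after division by the overdispersion. It ran from 21 to 25 with 1 library left out, where each test has fewer counts. For the tests with 1 library left out, the share of all genes that differed was not counted. The numbers from 21 to 25 therefore do not set the lysosome and autophagy genes apart from other genes. The median level fell to 37.7 TPM on protein-coding transcripts. In CPM the log2 ratio turned to 0.51 for Tfe3/Tfeb, to -0.43 for Gabarap/Map1lc3b and to 0.24 for Atg12/Atg5, where counts are not divided by transcript length. On protein-coding transcripts Gabarap/Map1lc3b turned to -0.17 and Tfe3/Tfeb, at -0.41, came to exceed the spread. In the smaller table Gabarapl2/Gabarapl1 turned to -1.51, and the cause was not tested. The signs of Tfe3/Tfeb (0.12) and Ulk1/Ulk2 (-0.03) also turned there, without exceeding the spread in TPM or in that table. By expected counts the share of Ctsb-202 fell from 68.5% to 25.9% and it no longer led. With 1 library left out, Tfe3/Tfeb ran from -0.20 to -0.089 and exceeded the spread without library 1, and Ulk1/Ulk2 ran from 0.27 to 0.57 and exceeded it without library 3. No paired analysis was possible because the labels give a single group. Depth limits mainly Wipi1, Ctsh, Ctsl and Optn, which had under 200 expected counts in each library.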
